A study of Mus musculus with 8 samples.

Results

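The laminins, nidogens and perlecan are the proteins that, with collagen IV, build the basement membrane around every muscle fibre, capillary and nerve of skeletal muscle. The 9 genes described here, *Lama2*, *Lama4*, *Lama5*, *Lamb1*, *Lamb2*, *Lamc1*, *Nid1*, *Nid2* and *Hspg2*, were chosen by name as the chains and linkers of this sheet. All 9 were found among the 16686 genes with an identifier and counts. They were measured by RNA-seq in the tibialis anterior (TA), a fast-twitch muscle of the lower leg, of 4 wild-type (WT) and 4 C2-/- male FVBN mice labelled 22 months old, with 1 library per mouse. C2-/- mice lack *Mybpc2*, the gene of fast skeletal myosin binding protein-C, a thick-filament protein of fast fibres. In this line a Neo cassette with LoxP sites on both sides stands where exons 2 through 22 of the gene had been, and the labels name no driver that would limit the deletion to a tissue. Another entry in the labels, on how the mice were raised, gives an age of 2 months, which conflicts with the age label. The comparison asks whether the RNA of an old fast muscle differs without this protein.

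A laminin is a cross-shaped trimer of 1 α, 1 β and 1 γ chain that assembles into a sheet on the cell surface, held there by dystroglycan and by integrins. Nidogens tie the laminin sheet to the collagen IV network, and perlecan, a very large heparan sulfate proteoglycan, binds both networks and dystroglycan. In muscle the α2 chain is the main link between the fibre and its basement membrane, and its loss causes a congenital muscular dystrophy. Muscle fibres, endothelium, pericytes and fibroblasts all make parts of the sheet.

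The targeted gene followed the labels, with *Mybpc2* at 4964 to 7392 CPM (read counts per unit of library size, scaled by the TMM method) in WT mice and 3.85 to 38.3 CPM in C2-/- mice, of which replicate 3 was the highest. The total of estimated read counts was 25425993 to 29747692 per library, and the 9 genes took between 194 and 6651 counts each, far above the floor of 3 counts (0.101 to 0.118 CPM, counting error only). Myofibre markers such as *Acta1* and *Ckm* summed to 128012 to 171281 CPM per library. All p-values set a difference between genotypes against the variation between mice, with the mouse as the unit.

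None of the 9 genes passed the test between genotypes. The means of 8 of the 9 were higher in C2-/- muscle, with log2 fold changes from 0.01 to 0.50, and that of *Lama5* was −0.01. Their median log2 fold change was 0.22, against −0.02 over the 12542 genes tested, of which 45.8% were above 0. All 9 have long transcripts. The median was 0.02 over the 2960 other tested genes with a transcript of at least 5 kb, and 0.11 over the 310 of at least 10 kb. With edgeR's quasi-likelihood test and Benjamini-Hochberg adjustment over all tested genes, 0 of 9 had an adjusted p under 0.05, where 0.0319% of all genes did. With an unadjusted p under 0.05 the count was also 0 of 9, where 5.29% of all genes passed (3.38% higher and 1.91% lower in C2-/- muscle), and limma-voom and DESeq2 gave 0 of 9 by either rule. The groups overlapped for each of the 9 genes, whereas they did not overlap for 3.38% of all genes (2.03% with C2-/- above WT and 1.36% with C2-/- below WT). The unadjusted count changed when 1 mouse was left out. Without WT replicate 3, *Nid1*, *Hspg2*, *Lamc1* and *Lama4*, 4 of 9, had an unadjusted p under 0.05, and the smallest adjusted p was 0.450. The count over all tested genes rose as well, to 983 from 663 with all mice.

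**Figure D1:**
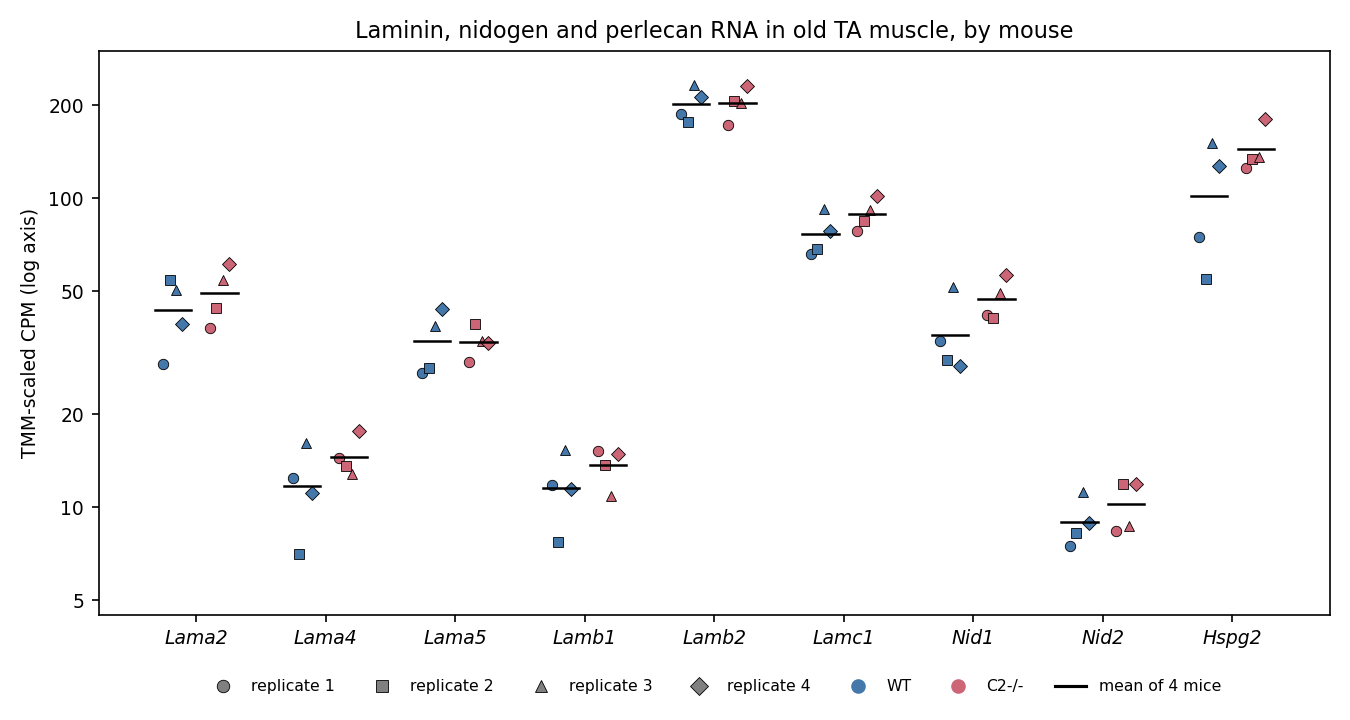
TMM-scaled CPM of the 9 genes on a log axis, with 1 point per mouse, WT in blue and C2-/- in red, the marker shape giving the replicate number and the black line the mean of 4 mice. The 2 groups overlap for every gene, and the widest spread is that of Hspg2 in WT mice, from 54.9 to 151 CPM.

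Levels of different genes were compared per length, on the authors' TPM (a level scaled to gene length and library size). *Lamb2*, the β2 chain of the neuromuscular junction and of vessel walls, was the highest at 66.5 ± 10.8 TPM (SD, n = 8 mice). It was followed by *Lamc1*, the γ1 chain present in nearly all laminins, at 20.0 ± 3.99 TPM, *Hspg2* at 15.9 ± 5.85 TPM and *Nid1* at 12.8 ± 3.76 TPM. *Lama2* had 8.77 ± 2.22 TPM and *Lama5* 5.52 ± 1.12 TPM. *Lamb1* (4.07 ± 1.02 TPM), *Lama4* (4.04 ± 1.17 TPM) and *Nid2* (3.65 ± 0.885 TPM) were the lowest. Among neighbours in this order, the ranges over the 8 mice were separate for *Lamb2* and *Lamc1* alone, whose TPM ratio was 3.01 to 3.85 in the 8 mice. *Lamc1* was above *Hspg2*, and *Lama2* above *Lama5*, in 8 of 8 mice, although their ranges overlapped. *Lamb1* was above *Lama4* in 5 of 8 mice, with ratios from 0.887 to 1.15.

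**Figure D2:**
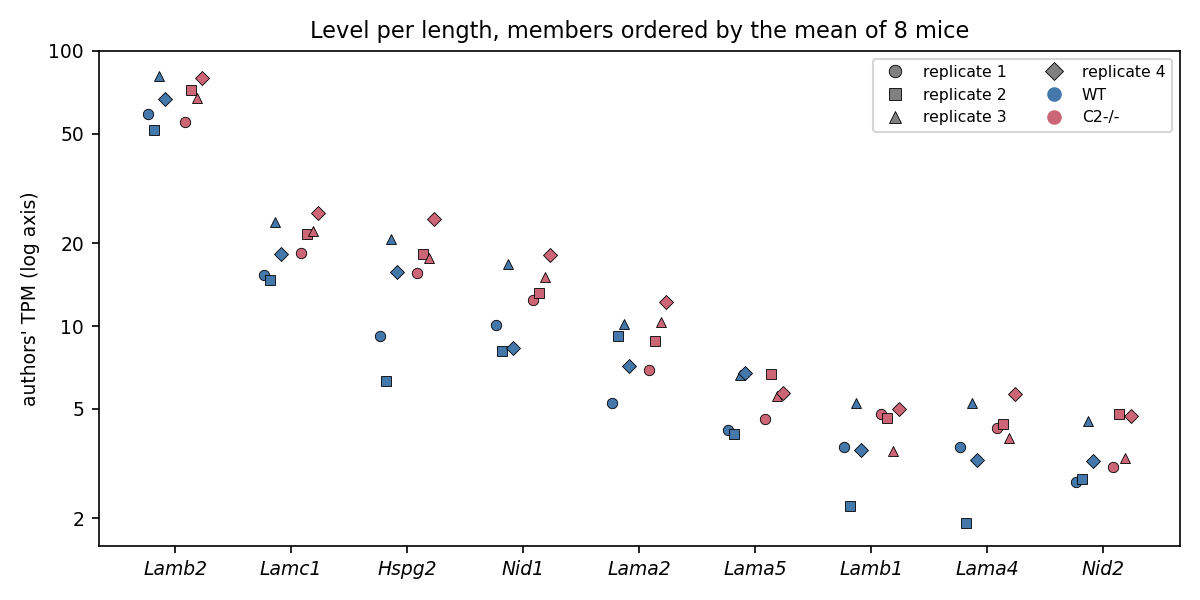
The authors' TPM of the 9 genes on a log axis, ordered by the mean of 8 mice, with 1 point per mouse (WT blue, C2-/- red, shape by replicate). Lamb2 lies at 51.7 to 81.2 TPM, apart from the other genes, and the lowest genes, Lamb1, Lama4 and Nid2, lie between 1.92 and 5.64 TPM.

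Since a trimer takes 1 chain of each kind, the sums of the measured chains were set against *Lamc1*. The α sum of *Lama2*, *Lama4* and *Lama5* was 0.855 to 1.03 times the *Lamc1* TPM in the 8 mice, so the measured α and γ transcripts stood at close to equal levels per length. The β sum was 3.18 to 4.08 times that of *Lamc1*, and *Lamb2* made up 92.0% to 95.9% of it. *Lama2* made up 40.3% to 60.6% of the α sum, *Lama5* 24.3% to 39.3% and *Lama4* 12.7% to 27.7%. These are transcript ratios, which depend on the gene lengths the authors used, and protein was not measured here.

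Of the α chains, *Lama2* encodes the laminin α2 chain of the fibre surface. It lies on the minus strand of chromosome 10 at 26981285 to 27617282 (GRCm38), with 65 exons in its longest transcript. WT replicates 1 to 4 had 29.1, 54.5, 50.5 and 39.3 CPM, and C2-/- replicates 1 to 4 had 37.9, 44.0, 54.3 and 61.2 CPM. The lowest mouse was a WT mouse and the highest a C2-/- mouse, and the other 6 were interleaved. The log2 fold change was 0.19 (SE 0.21, 95% interval −0.29 to 0.66, edgeR adjusted p = 0.974). It was 0.04 without WT replicate 1, 0.07 without C2-/- replicate 4 and 0.30 to 0.32 without C2-/- replicate 1 or WT replicate 2.

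*Lama4*, the α4 chain of small vessels and nerve, lies on the plus strand of the same chromosome at 38963989 to 39110188. It had 12.4, 7.08, 16.2 and 11.1 CPM in WT mice and 14.4, 13.6, 12.8 and 17.6 CPM in C2-/- mice, again in replicate order. WT replicate 2 was the lowest of all, and WT replicate 3 was above 3 of the 4 C2-/- mice. The log2 fold change of 0.32 (SE 0.22) had a 95% interval from −0.17 to 0.82 (edgeR adjusted p = 0.968). It was 0.15 without WT replicate 2 and 0.53 without WT replicate 3.

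*Lama5*, the α5 chain of vessels and of the neuromuscular junction, lies on chromosome 2 at 180176373 to 180227726. It had 27.3, 28.3, 38.7 and 43.7 CPM in WT mice and 29.6, 39.3, 34.4 and 34.0 CPM in C2-/- mice. All 4 C2-/- values lay inside the WT range. Its fold change, C2-/- over WT, was 0.995 with a 95% interval from 0.767 to 1.29 (edgeR adjusted p = 0.998).

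The β chains *Lamb1* and *Lamb2* differed most in level. *Lamb1*, on the plus strand of chromosome 12 at 31265146 to 31331147, encodes the widespread β1 chain. *Lamb2* lies on the plus strand of chromosome 9 at 108479857 to 108490530. Their TPM ratio, *Lamb2* over *Lamb1*, was 11.6 to 23.4 in the 8 mice. The bases just before the first annotated exon of each gene are shown because this pair had the greatest contrast in level among the laminin chains of one kind; they are the RefSeq reference (GRCm38.p6), plus strand, in lower case, and contain no match to GGGCGG (the GC box, either strand) or TATAAA. They are chr12:31265043-31265145 for *Lamb1* and chr9:108479612-108479735 for *Lamb2*.
Lamb1: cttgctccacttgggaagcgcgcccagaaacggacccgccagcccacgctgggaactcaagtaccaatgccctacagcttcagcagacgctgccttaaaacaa
Lamb2: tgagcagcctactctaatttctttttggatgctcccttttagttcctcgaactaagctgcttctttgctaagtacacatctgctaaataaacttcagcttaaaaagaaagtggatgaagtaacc
G and C make up 58.3% of the *Lamb1* stretch and 37.9% of the *Lamb2* stretch. The printed stretches are only part of the 300-base windows around the RefSeq starts. Those windows held 2 matches to GGGCGG and 63.7% G and C for *Lamb1*, and 0 matches and 44% for *Lamb2*. These letters are a description of the reference sequence, and no binding or chromatin was measured.

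*Lamb2* had 187, 177, 232 and 212 CPM in WT mice and 173, 207, 204 and 231 CPM in C2-/- mice. It was among the least variable of the 9 genes, with a highest mouse 1.34 times the lowest and a coefficient of variation of 12.3% in WT and 11.5% in C2-/- mice. Its fold change was 1.01 with a 95% interval from 0.829 to 1.23 (edgeR adjusted p = 0.998), the narrowest interval among the 9 genes. *Lamb1* had 11.8, 7.70, 15.3 and 11.5 CPM in WT mice and 15.2, 13.7, 10.9 and 14.9 CPM in C2-/- mice. WT replicate 2 was the lowest, as for *Lama4*, and WT replicate 3 the highest. Its log2 fold change was 0.24 (SE 0.20, 95% interval −0.21 to 0.69, edgeR adjusted p = 0.968), and it was 0.09 without WT replicate 2 and 0.41 without WT replicate 3.

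*Lamc1* encodes the γ1 chain, which carries the nidogen binding site, and lies on the minus strand of chromosome 1 at 153218922 to 153332786. It had 66.2, 68.3, 92.4 and 78.6 CPM in WT mice and 78.5, 84.5, 91.6 and 102 CPM in C2-/- mice. WT replicates 1 and 2 were below every C2-/- mouse, WT replicate 4 was level with the lowest of them, and WT replicate 3 was below C2-/- replicate 4 alone. The log2 fold change was 0.22 (SE 0.14, 95% interval −0.08 to 0.53, edgeR adjusted p = 0.968), with 0.15 to 0.33 leaving out 1 mouse at a time.

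The nidogens bind *Lamc1*'s product and collagen IV. *Nid1*, on the plus strand of chromosome 13 at 13437602 to 13512275, had 34.4, 29.9, 51.8 and 28.6 CPM in WT mice and 42.0, 40.9, 49.2 and 56.6 CPM in C2-/- mice. WT replicates 1, 2 and 4 were below every C2-/- mouse, while WT replicate 3 was above 3 of them. *Nid1* had the smallest p of the 9 genes, with a log2 fold change of 0.38 (SE 0.20, 95% interval −0.05 to 0.82, edgeR adjusted p = 0.968). Leaving out 1 mouse at a time, its log2 fold change ranged from 0.28 (without C2-/- replicate 4) to 0.61 (without WT replicate 3, edgeR adjusted p = 0.450).

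*Nid2*, on the plus strand of chromosome 14 at 19751257 to 19811787, was lower than *Nid1* in 8 of 8 mice, with a TPM ratio of *Nid1* over *Nid2* from 2.59 to 4.55. It had 7.52, 8.28, 11.2 and 8.87 CPM in WT mice and 8.37, 11.9, 8.73 and 11.9 CPM in C2-/- mice. Both groups covered nearly the same range. The log2 fold change was 0.19 (SE 0.18, 95% interval −0.20 to 0.59, edgeR adjusted p = 0.968), and it was 0.11 without C2-/- replicate 2 or 4, 0.12 without WT replicate 1 and 0.32 without WT replicate 3.

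*Hspg2* encodes perlecan, which anchors acetylcholinesterase at the neuromuscular junction besides its place in the sheet. It lies on the plus strand of chromosome 4 at 137468764 to 137570630, and its longest transcript, 14187 bases in 97 exons, is the longest of the 9. It had 74.7, 54.9, 151 and 127 CPM in WT mice and 125, 134, 136 and 180.1 CPM in C2-/- mice. WT replicates 1 and 2 were below every C2-/- mouse, and WT replicates 3 and 4 lay among them. This was the largest log2 fold change of the 9 genes at 0.50 (SE 0.28), with a 95% interval from −0.13 to 1.12 (edgeR adjusted p = 0.968). Its coefficient of variation was 43.8% in WT and 17.3% in C2-/- mice, and the highest mouse had 3.28 times the level of the lowest. Leaving out 1 mouse at a time, its log2 fold change ranged from 0.30 (without WT replicate 2) to 0.75 (without WT replicate 3, edgeR adjusted p = 0.577).

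Its promoter is shown because *Hspg2* had the largest difference in means and the widest spread. The RefSeq reference (GRCm38.p6) before its first exon, chr4:137468553-137468763, plus strand, is printed with the matches to GGGCGG, the GC box bound by Sp1-family factors, in capitals.
Hspg2: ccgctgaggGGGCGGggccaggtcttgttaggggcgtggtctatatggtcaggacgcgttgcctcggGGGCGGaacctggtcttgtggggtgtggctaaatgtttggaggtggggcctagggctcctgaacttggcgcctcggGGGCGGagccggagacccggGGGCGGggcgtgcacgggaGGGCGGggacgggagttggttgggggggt
This stretch of 211 bases held 5 matches and 70.1% G and C. Windows of 300 bases (250 before and 50 after the RefSeq start) were found for 6 of the 9 genes. On either strand they held 5 matches in *Hspg2*, 4 in *Lama5*, 2 in *Lamb1*, 1 in *Lama2*, 1 in *Nid1* and 0 in *Lamb2*. Of 32851 such windows of all genes, 35.7% held at least 1 match. TATAAA was in 0 of the 6 and in 13.6% of all windows.

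**Figure D3:**
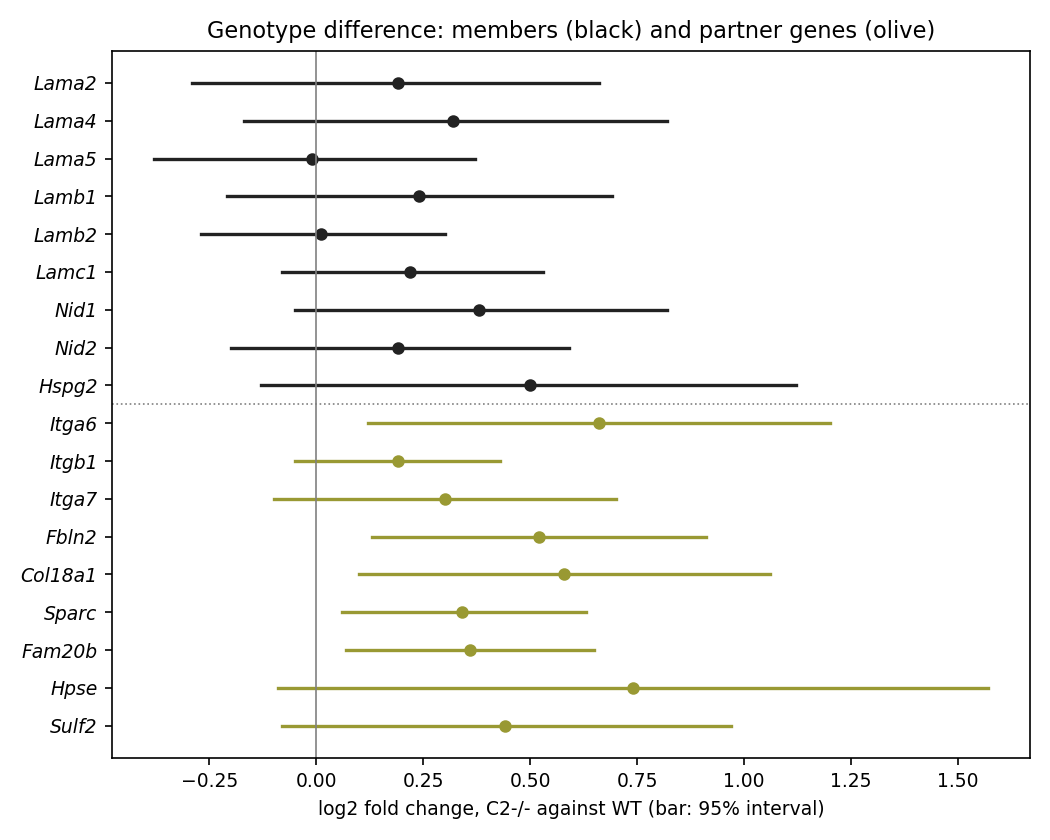
Log2 fold change, C2-/- against WT, with its 95% interval, for the 9 genes (black) and for 9 partner genes of the receptor, basement membrane and heparan sulfate lists (olive), the 3 with the smallest p of each list. All 9 black intervals cross 0, and the olive intervals of Itga6, Fbln2, Col18a1, Sparc and Fam20b do not, before adjustment.

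The chain choice within a mouse does not depend on how libraries are scaled. Of 4 log2 ratios of counts, *Lamb2* over *Lamb1* averaged 4.16 ± 0.27 in WT and 3.90 ± 0.29 in C2-/- mice (SD, n = 4 each), a difference of −0.25. *Nid2* over *Nid1* differed by −0.23, *Lama5* over *Lama2* by −0.19 and *Lama4* over *Lama2* by 0.17, the last turning to −0.17 without WT replicate 2. Two-sided exact permutation tests over the mice gave adjusted p = 0.571 for *Lamb2* over *Lamb1* and for *Nid2* over *Nid1*, 0.762 for *Lama5* over *Lama2* and 0.829 for *Lama4* over *Lama2*. The smallest p that 4 against 4 mice allow is 0.0286. No change of chain choice between genotypes was detectable with 4 mice a group.

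Among all 36 pairs of the 9 genes, the groups did not overlap for 1 log2 ratio (2.78%). It was that of *Lamb2* over *Lamc1*, named after its values were seen and so given without a test. It was 1.50, 1.37, 1.33 and 1.43 in WT mice and 1.14, 1.30, 1.15 and 1.18 in C2-/- mice, a difference of −0.21. For a single comparison, 4 against 4 mice separate completely by chance with a probability of 0.0286 (two-sided exact permutation). The 36 ratios reuse the same 9 genes and 8 mice and are not independent, so this probability does not judge 1 of 36. The log2 ratio of *Lama4* over *Lamb1* stayed within −0.12 to 0.24 in the 8 mice, although each gene varied over 1.98-fold or more. This pair had the highest correlation of the 36 (Pearson's r = 0.947) and was also named after its values were seen.

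The 9 genes tended to be low and high in the same mice, across the genotypes. WT replicate 2 was among the 2 lowest mice for 8 of the 9 genes, the exception being *Lama2*, and WT replicate 1 for 5 of them. C2-/- replicate 4 was among the 2 highest for 7 genes and WT replicate 3 for 6. The median log2 deviation from the mean of 8 mice over the 9 genes was −0.31, −0.26, 0.24 and −0.09 in WT replicates 1 to 4 and −0.06, 0.09, 0.02 and 0.33 in C2-/- replicates 1 to 4.

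Transcript length moved with these levels. The longest transcripts of the 9 genes had between 4876 (*Nid2*) and 14187 bases (*Hspg2*). The 310 other tested genes with a transcript of at least 10 kb had median log2 deviations of −0.27, −0.46, 0.29 and 0.10 in WT mice and −0.09, 0.11, 0.08 and 0.21 in C2-/- mice. Of the 9 genes, *Lama5* (11388 bases) and *Hspg2* are of that length, and *Lama2* is next with 9614 bases. The 2960 other genes of at least 5 kb deviated less. Their medians were −0.11, −0.19, 0.14 and 0.05 in WT mice and −0.07, 0.07, 0.02 and 0.09 in C2-/- mice. WT replicates 1 and 2 were thus the lowest 2 mice, and WT replicate 3 and C2-/- replicate 4 the highest 2. This held in both length classes and for the median of the 9 genes. The 2423 other genes under 2 kb deviated by 0.15 in WT replicate 2 and −0.11 in WT replicate 3. With the length trend of each library taken out, an alternative chosen after the data were seen, *Hspg2* had a log2 fold change of 0.41 (edgeR adjusted p = 0.820) and *Nid1* one of 0.36 (edgeR adjusted p = 0.896). Of the 9 genes, 1, *Hspg2*, then had an unadjusted p under 0.05, as did 713 of all tested genes, against 663 in the main fit. *Lama2* went from 0.19 to 0.06, *Lamc1* from 0.22 to 0.16 and *Lama5* from −0.01 to −0.11, and the sign of *Lamb2* turned, to −0.01. *Lama4* (0.30), *Lamb1* (0.22) and *Nid2* (0.18) moved by 0.02 or less, and the median of the 9 genes was 0.18.

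**Figure D4:**
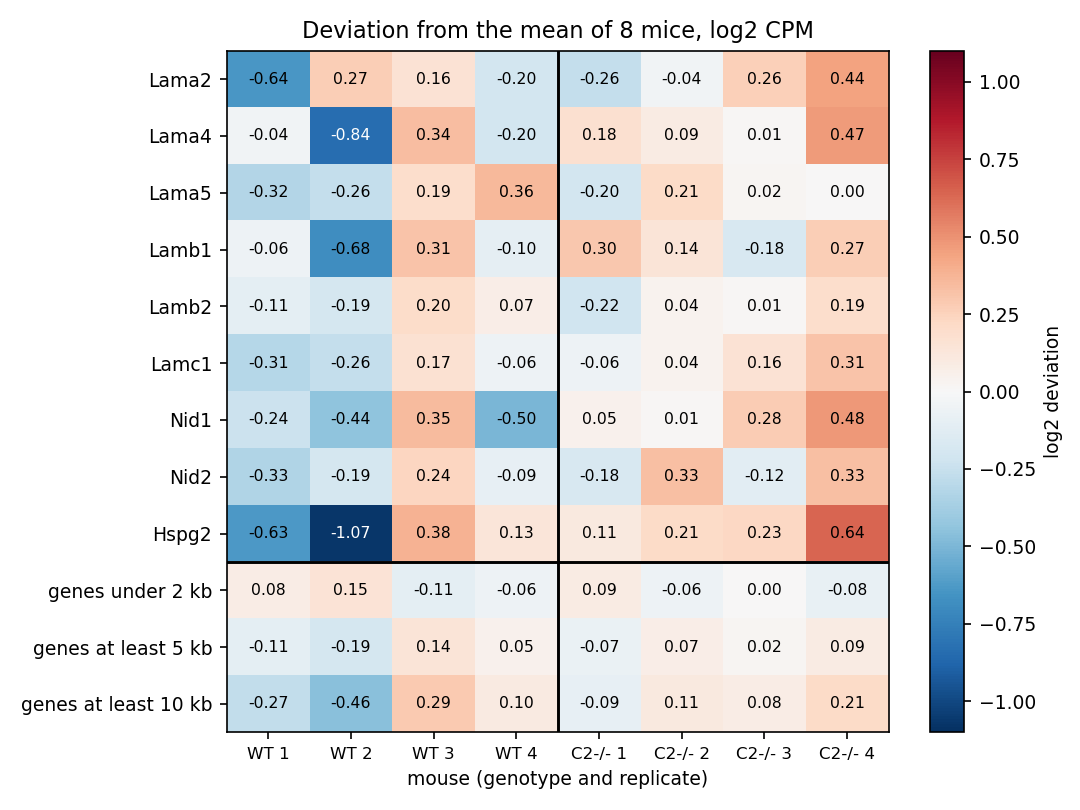
Log2 CPM of each of the 9 genes as the deviation from the mean of 8 mice (1 column per mouse, blue below and red above the mean), over the median deviation of other tested genes by the length of their longest transcript. WT 1 and WT 2 are low and WT 3 and C2-/- 4 high for most of the 9 genes and for genes of at least 10 kb, from −0.46 in WT 2 to 0.29 in WT 3 for the latter.

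The 5 tested genes whose log2 CPM was most like the mean standardized level of the 9 genes over the 8 libraries were *Smg1* (Pearson's r = 0.984), *Cbl* (0.979), *Itih5* (0.979), *Tmem245* (0.971) and *Ythdc2* (0.967). Their longest transcripts had 7215 to 15981 bases. These r values describe 8 libraries that differ in the length trend above, and no p was computed.

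Fibroblast markers had higher means in C2-/- muscle, as most of the 9 genes did. Of 7 markers of fibroblasts and fibro-adipogenic progenitors, 7 had a higher mean, 4 with an unadjusted edgeR p under 0.05 (3.38% of all genes in this direction) and 0 with an adjusted p under 0.05. Their summed level was 302 to 452 CPM in WT and 499 to 675 CPM in C2-/- mice. The 7 markers of pericytes and smooth muscle were also all higher in mean, 2 with an unadjusted p under 0.05, at 428 to 612 CPM in WT and 590.0 to 669 CPM in C2-/- mice. A large part of this sum was *Abcc9*, at 207 to 331 CPM in WT and 243 to 309 CPM in C2-/- mice (log2 fold change 0.07). The 7 endothelial markers had a higher mean for 4 and a lower one for 3, at 232 to 337 and 225 to 305 CPM. None of these markers was at 0 in any mouse. Of 8 tested tendon markers 7 had a higher mean, 2 with an unadjusted p under 0.05, at 59.7 to 197 CPM in WT and 100.3 to 277 CPM in C2-/- mice, and *Kera* was at 0 in WT replicate 2. The part of these cells in the levels of the 9 genes was not tested. In whole muscle a difference in the number of cells of a type and one in RNA per cell cannot be told apart.

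The partners of the 9 genes were counted by role. Of 13 laminin receptor and dystrophin-glycoprotein complex genes, 8 had a higher and 5 a lower mean, with a median log2 fold change of 0.09. *Itga6*, an integrin subunit that binds laminins, had 7.33 to 13.4 CPM in WT and 10.4 to 20.9 CPM in C2-/- mice, a log2 fold change of 0.66 (SE 0.24, edgeR adjusted p = 0.849). It was 1 of 13 with an unadjusted p under 0.05, where 5.29% of all genes passed. The log2 fold change was 0.30 for *Itga7*, the main laminin-binding integrin subunit of muscle fibres, and 0.19 for its β partner *Itgb1*, with adjusted p = 0.968 for each.

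Of 20 tested components of basement membranes outside the 9 genes, 16 had a higher and 4 a lower mean, with a median log2 fold change of 0.22, as for the 9 genes. The unadjusted p was under 0.05 for 5 of 20, all higher (3.38% of all genes in this direction), and the adjusted p for 0. The mean log2 deviation of the 20 genes was −0.60 in WT replicate 2. It was −0.08 to 0.13 in the other WT mice and 0.05 to 0.18 in C2-/- mice. *Fbln2* (fibulin-2, a binding partner of laminins and nidogens) had 35.1 to 62.2 CPM in WT and 58.9 to 76.3 CPM in C2-/- mice, a log2 fold change of 0.52 (SE 0.18, edgeR adjusted p = 0.780). *Col18a1*, the gene of a basement membrane collagen that also carries heparan sulfate, had a log2 fold change of 0.58 and *Sparc*, a collagen-binding matrix protein, one of 0.34, each with edgeR adjusted p = 0.852. The summed level of this list was 444 to 598 CPM in WT and 572 to 662 CPM in C2-/- mice.

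Among 22 genes that build or edit heparan sulfate, the sugar chain of perlecan, 14 had a higher and 8 a lower mean, with a median log2 fold change of 0.06. *Fam20b*, the kinase of the linker sugar, had a log2 fold change of 0.36 (SE 0.13, edgeR adjusted p = 0.849). It was 1 of 22 with an unadjusted p under 0.05, where 5.29% of all genes passed. *Hpse* (heparanase) had a log2 fold change of 0.74 and *Sulf2*, which removes sulfate groups, one of 0.44, each with edgeR adjusted p = 0.968. Of 17 tested genes that glycosylate dystroglycan for laminin binding, 9 had a higher and 8 a lower mean and 0 had an unadjusted p under 0.05. The smallest p of this list were those of *Dpm1* (log2 fold change −0.19), *Pomt2* (−0.22) and *Dpm2* (−0.27). Of the chains of other laminins, *Lamb3* and *Lama3*, known from epithelia, were low, at 0.255 to 0.728 CPM and 0.766 to 1.64 CPM, with log2 fold changes of 0.52 (SE 0.39, edgeR adjusted p = 0.968) and 0.05 (SE 0.30, edgeR adjusted p = 0.998).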

How the data were processed

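Per the paper's methods and the labels, the authors aligned reads with HISAT to GRCm38.p6 and counted them with featureCounts, and the submitters' processing notes also name Bowtie2. The authors deposited 1 table, with expected counts per gene (not normalized, with any fractional part in 5.5% to 6.53% of the 16686 gene values of a mouse) and TPM, whose gene length is not given in the sources used here. The deposited table also holds other values of the mice, in 8 columns in total. It further holds averages by genotype and the fold changes and p-values of a DESeq2 comparison by the authors. None of these was used.

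Counts were rounded, scaled with TMM factors and tested with edgeR 4.0.16 (R 4.3.3) by the quasi-likelihood F test on genotype. The edgeR default filter on low counts left 12542 genes, and p-values were adjusted by the Benjamini-Hochberg method over all of them. The study names limma and voom, so limma-voom (limma 3.58.1) and DESeq2 1.42.0 were alternatives, with RLE size factors, other filters, a replicate block and leaving out each mouse. The members and gene lists were chosen with earlier results of these data known. Named are the 9 genes, the 3 genes with the smallest p of each pathway list, and the 5 genes most like the members. One item of the list of other laminin chains is not reported here, nor are that list's counts. The symbol of 2 list genes was matched through an older one. The log2 CPM used a prior count of 2 and ratios a prior count of 0.5. The length of the longest GENCODE vM21 transcript was known for 99.3% of tested genes, and the length alternative took out a lowess trend (span 0.5) per library. The fit was tested on simulated counts. Exons of *Lama2*, *Nid1* and *Nid2* overlap a gene on the other strand over 3.86%, 2.06% and 8.45% of their exonic bases (*Gm48084*, *Gm48682* and *Rtraf*). Counting by strand is not stated, so the share of these counts that the overlaps affect is not known. Coordinates are those of the table, except that the table's strand of *Lama5* differs from GENCODE and is not printed. Figures were drawn with matplotlib 3.10.9, and other values were computed with Python 3.11.15, pandas 2.3.3 and scipy 1.17.1.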

Additional observations from a re-analysis of the deposited data

Results flagged for a closer look

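Within groups of 4 mice, 3 of 56 sets of values had 1 mouse far from the other 3 by Dixon's test at its 95% critical value (0.829), and chance marks about 1 in 20. None was the level of a single one of the 9 genes. The summed level of the dystroglycan glycosylation list was lowest in WT replicate 2 at 380.3 CPM, and that of the other basement membrane components was lowest among C2-/- mice in replicate 2 at 572 CPM. Immediate early genes such as *Fos* and *Egr1* summed to 1269 CPM in C2-/- replicate 2 and to 287 to 326 CPM in the other C2-/- mice.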

How the results depend on the processing

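Of 135 log2 fold changes of the 9 genes under 15 alternatives, 125 kept their direction and 10 reversed, all of *Lama5* or *Lamb2*. No alternative brought an adjusted p under 0.05 for any of the 9. *Lama5* was 0.01 with limma-voom, with at least 10 counts in every mouse and with the replicate block, and −0.10 to 0.14 leaving out 1 mouse. *Lamb2* was −0.05 to 0.09 leaving out 1 mouse and −0.01 with the length trend taken out. The genes called were 4, against 39 with DESeq2 and 4 to 7 leaving out 1 mouse (7 without WT replicate 2), and the cause was not tested. The members with an unadjusted p under 0.05 were 0, against 0 to 4 leaving out 1 mouse (4 without WT replicate 3) and 1 with the length trend taken out (*Hspg2*). Over all tested genes this count was 663, against 983 without WT replicate 3 and 713 with the length trend taken out. The median log2 fold change of the members was 0.15 to 0.33 leaving out 1 mouse. The log2 ratio *Lama4* over *Lama2* was −0.17 to 0.40 leaving out 1 mouse.

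Both groups carry replicate numbers 1 to 4, and same-numbered mice deviated together with r = 0.267, 0.042, −0.0507 and 0.0212. Mice of different numbers were not compared in this way, so whether the numbers pair the mice was not settled. The main fit did not pair them. With the replicate block 2 members had an unadjusted edgeR p under 0.05 (*Hspg2* 0.0258, *Nid1* 0.0479), with adjusted p = 0.878 and 0.925. Over all tested genes 660 then had an unadjusted p under 0.05, against 663 in the main fit. With 4 mice a group, the 95% interval of *Hspg2* spans a fold of 0.913 to 2.18; the 9 genes had at least 194 counts in every library.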

Other observations

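Markers of other cells also varied between the mice. Of 5 tested Schwann cell markers 1 had a higher mean in C2-/- muscle, at 30.2 to 81.3 CPM summed in WT and 27.5 to 62.3 CPM in C2-/- mice. All 5 macrophage markers had a higher mean, at 16.3 to 39.6 and 29.4 to 46.0 CPM, and 4 of 5 adipocyte markers, at 6.02 to 22.8 and 10.4 to 40.4 CPM. Satellite cell markers summed to 0.875 to 1.48 CPM in WT and 1.11 to 1.45 CPM in C2-/- mice. Of the 6 myofibre markers 4 had a higher and 2 a lower mean. The 7 immediate early genes all had a lower mean in C2-/- muscle, at 369.5 to 1881 CPM in WT and 287 to 1269 CPM in C2-/- mice. Single mice of both genotypes were high. WT replicates 2 and 4 had 904 and 1881 CPM and C2-/- replicate 2 had 1269 CPM. WT replicates 1 and 3 had 369.5 and 534 CPM, and the other C2-/- mice 287 to 326 CPM. None of the genes of these 6 lists had an edgeR p under 0.05, adjusted or not.

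*Lama1*, the α1 chain of early embryonic basement membranes, had 0.00 to 0.0693 CPM, below the floor of 3 counts in all 8 mice.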
